A study of Mus musculus with 12 samples.

Results

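The genes described here are those that encode the proteins of the cytosolic ribosome, measured in mouse neuroblastoma tumors with and without high intensity focused ultrasound (HIFU), a treatment that heats or mechanically disrupts tissue at the focus of a sound beam. A gene was taken as a member when its symbol in the platform's annotation was Rpl or Rps followed by a number and at most 1 of the letters a, l, x or y, or was Rplp0, Rplp1, Rplp2 or Rpsa. The pattern found 60 genes. Rpl3l, a paralog of Rpl3 made in striated muscle, is given apart, which leaves 59 members among 22206 probe sets, 36 of the large and 23 of the small ribosomal subunit. Each member had a single probe set. Genes of the ribosome that the pattern did not find, such as Rplp2, Rpl10 and Rps27a, were not analysed here.

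The series holds 12 arrays (Affymetrix Mouse Clariom S) in 4 groups of 3. All tumors grew from neuroblastoma cells inoculated into A/J mice. The control tumors received no treatment, and the others are labelled HIFU at 24 h, 48 h and 72 h, which is read here as hours after treatment. The labels do not say whether the 3 samples of a group came from separate animals, so p-values measure only the spread between these samples, which may be technical. The values are signals deposited on a scale read from their range, 1.75 to 19.93, as log2, and a difference of 1 between groups is then a doubling. Each array gave a median signal of 5.43 to 5.68. Of 16 genes of the adrenergic neuroblastoma type, 13 were measured, and none of them was among the dimmest 25% of probe sets by mean signal.

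Ribosomal proteins are assembled with ribosomal RNA in the nucleolus and exported as the small subunit, which reads the message, and the large subunit, which joins the amino acids. Their messages are among the most abundant in growing cells, and most begin with a terminal oligopyrimidine (TOP) tract, a C followed by a run of C and T, through which mTOR signalling controls their translation. In neuroblastoma, the Myc family of transcription factors is known for driving ribosome production. Ribosomal protein genes also have many processed pseudogenes and close copies, so the assignment of a signal to one of them can be uncertain on an array.

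The starts of 11 genes are shown, since the TOP tract lies at the first base of the message and is the sequence feature by which this family is known. Each line gives 15 bases before and 15 from the RefSeq start onward, on the strand of the gene in build GRCm38.p6. Where RefSeq has several starts, the most upstream one was taken. Capitals mark a tract that begins at the start with C and goes on with at least 4 C or T. Of the 59 members, 46 had an entry in the RefSeq promoter table.
Rps10, chr17:27635230-27635259, minus strand: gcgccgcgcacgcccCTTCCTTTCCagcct
Rps18, chr17:33955651-33955680, minus strand: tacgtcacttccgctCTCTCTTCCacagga
Rps21, chr2:180257364-180257393, plus strand: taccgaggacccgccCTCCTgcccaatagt
Rps6, chr4:86857353-86857382, minus strand: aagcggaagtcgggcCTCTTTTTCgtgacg
Rpl15, chr14:18270972-18271001, minus strand: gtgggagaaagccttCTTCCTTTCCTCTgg
Rpl38, chr11:114668565-114668594, plus strand: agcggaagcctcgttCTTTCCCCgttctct
Rpl14, chr9:120571502-120571531, plus strand: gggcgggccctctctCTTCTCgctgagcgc
Rps13, chr7:116334176-116334205, minus strand: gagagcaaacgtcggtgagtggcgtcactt
Rpl39, chrX:37085208-37085237, minus strand: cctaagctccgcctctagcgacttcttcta
Rpl39l, chr16:10170213-10170242, plus strand: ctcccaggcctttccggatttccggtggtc
Rpl3l, chr17:24727811-24727840, plus strand: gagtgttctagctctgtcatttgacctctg
The first 7 lines hold a tract at the annotated start, and the last 4 do not. Over all RefSeq starts of a gene, a tract was found at 1 or more of them in 12 of the 46 members, 26.1%, and in 813 of 27025 genes of the table, 3.01%. For 1 of the 12, Rpl35a, which has 3 starts, the tract is not at the most upstream one. The annotated starts decide this count, because a start placed a few bases away hides a tract.

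In the windows of 300 bases around each start, searched on both strands and counted over all starts of a gene, the ETS-type motif CCGGAAG lay in 20 of the 46 members (43.5%, against 9.93% of all genes in the table). The GC box GGGCGG lay in 26 (56.5%, against 38.2%). The YY1-type motif AAGATGG lay in 7 (15.2%, against 7.28%), the E-box CACGTG in 4 (8.7%, against 8.09%) and TATAAA in 6 (13%, against 15.7%). These are matches of letters, with overlap between motifs allowed.

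Ribosomal protein genes lay lower in HIFU tumors than in untreated ones at each time, by small amounts, and no member passed the test. The median member differed from control by -0.36 at 24 h, -0.46 at 48 h and -0.82 at 72 h on the log2 scale. The median over all probe sets was 0.00, 0.01 and -0.06. A difference below 0 was measured for 55, 54 and 58 of the 59 members, where 49.6%, 48.8% and 56.2% of all probe sets were below 0. For 53 members the sign was negative at all 3 times, which share the same 3 control arrays. The share of all probe sets with a negative sign at all 3 times is not given here. The tumors were measured as bulk tissue, in which fewer cells of a type and less RNA per cell cannot be told apart.

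With limma and Benjamini-Hochberg adjustment over all probe sets, 0 members were called at any time, beside 0.0045% of all probe sets called lower and 0.0495% called higher at 24 h. At 48 h these backgrounds were 0% and 0.0045%, and at 72 h 0% and 0.00901%. The smallest adjusted p of a member by limma was 0.382 at 24 h, 0.222 at 48 h and 0.255 at 72 h. At an unadjusted limma p under 0.05, 10, 20 and 33 members were lower and 0, 0 and 0 were higher. The same rule took 5.86%, 8.01% and 5.39% of all probe sets as lower and 3.98%, 5.3% and 5.85% as higher. These counts changed when single arrays were left out, and each omission also leaves fewer arrays for the fit. The 33 members at 72 h became 13 without replicate 2 of 72 h, 13 without control 2 and 18 without control 1. The 72 h median in those fits was -0.573, -0.755 and -0.778, with 56, 58 and 58 members below 0. The 20 at 48 h became 11 without control 1, 11 without control 2 and 13 without replicate 1 of 48 h. The 10 at 24 h became 0 without replicate 3 of 24 h, 3 without replicate 1 of 24 h, 4 without control 1, 2 without control 2 and 21 without replicate 2 of 24 h. Shares of all probe sets under these omissions are not given here. All 3 HIFU arrays lay below all 3 controls for 3 members at 24 h (5.08%), 30 at 48 h (50.8%) and 38 at 72 h (64.4%). Over all probe sets these shares were 7.68%, 11.7% and 10.1%, so at 24 h the members' share was below that background. All 3 lay above the controls for 0, 0 and 1 members, against 6.84%, 10.3% and 8.99%.

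Members are bright: 53 of 59 were among the brightest 10% of probe sets by mean signal. That 10% as a whole lay below control too, with medians of -0.23, -0.23 and -0.18 and with 67.5%, 65.3% and 63.7% of them below 0. Their share with an unadjusted limma p under 0.05 and a lower signal was 9.1%, 14.2% and 10.4%. Their share with 3 arrays below all controls was 14.7%, 22.8% and 14.9%. The members' medians lay below those of these bright probe sets at each time, most of all at 72 h.

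On single arrays the median deviation of the members from the control mean was 0.10, 0.12 and -0.26 in controls 1, 2 and 3. It was -0.59, 0.01 and -0.59 at 24 h, -0.45, -0.61 and -0.40 at 48 h, and -0.49, -1.14 and -0.62 at 72 h. The 24 h array of replicate 2 therefore lay inside the controls' range, while the other 8 HIFU arrays lay below it. The deepest value belonged to replicate 2 of 72 h, where 58 of 59 members were under the control mean. In control 3, 49 members were under that mean, compared with 18 and 13 in controls 1 and 2.

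**Figure D1:**
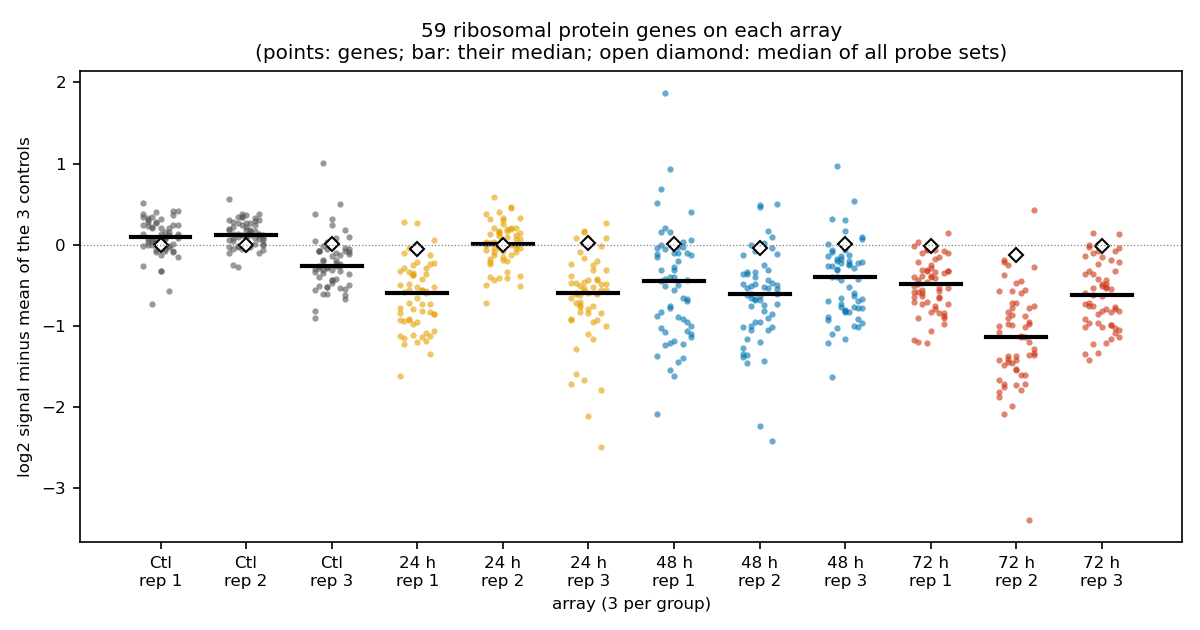
Log2 signal of 59 ribosomal protein genes on each of 12 arrays, as the difference from the mean of the 3 controls, with 1 point per gene, a bar at the median of the genes and an open diamond at the median of all probe sets. The gene medians of 8 of the 9 HIFU arrays sit between -0.40 and -1.14, below the controls, and that of replicate 2 at 24 h sits at 0.01.

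Other cell types varied with these arrays. The 20 skeletal muscle genes measured of 20 listed had array medians of -1.41, -0.60 and 2.19 in controls 1, 2 and 3. Those medians were 2.02 to 5.37 at 24 h, 2.76 to 4.25 at 48 h and 2.15 to 5.51 at 72 h. Their summed signal, on the log2 scale, ranged from 16.93 to 20.59 in controls, 20.85 to 22.19 at 24 h, 21.07 to 21.74 at 48 h and 20.60 to 22.27 at 72 h, and none of the 20 lay among the dimmest 25% of probe sets. The control with the most muscle signal was also the control with the lowest member median. The 72 h array with the highest muscle median was likewise the one with the lowest member median. Other arrays did not pair in this way. Replicate 2 of 24 h, replicate 1 of 72 h and control 3, with muscle medians of 2.02, 2.15 and 2.19, had member medians of 0.01, -0.49 and -0.26. Replicates 1 and 3 of 24 h, with muscle medians of 5.37 and 2.67, both had a member median of -0.59.

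Summed neutrophil signal (11 genes of 12) was 7.51 to 8.11 in controls, 8.12 to 12.81 at 24 h, 9.88 to 14.89 at 48 h and 15.48 to 19.04 at 72 h. Its array medians were -0.11 to 0.27, -0.05 to 2.54, 0.94 to 5.27 and 5.72 to 9.73. For fibroblast genes (9 of 10) the array medians were -0.68 to 1.00 in controls, 0.21 to 3.98 at 24 h, 1.40 to 5.34 at 48 h and 2.38 to 6.40 at 72 h. The fibroblast sums, carried by the brightest genes, were 15.14 to 17.11, 14.65 to 17.26, 15.39 to 18.33 and 15.89 to 18.71.

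The 13 adrenergic genes had medians of -0.95 to 1.10 in controls, -0.35 to 0.75 at 24 h, -0.25 to 1.18 at 48 h and -1.63 to 0.51 at 72 h, and sums of 16.41 to 18.79, 17.27 to 18.88, 17.12 to 18.55 and 15.91 to 18.76. No gene of the neutrophil, fibroblast and adrenergic lists was among the dimmest 25%. Replicate 2 of 72 h, the array with the lowest member median, also had the highest medians of macrophage (3.14, 9 genes of 10), adipocyte (2.50, 7 of 8), erythroid (3.59, 6 of 12) and keratinocyte genes (2.56, 8 of 8) of all 12 arrays. In controls those medians were -0.53 to 0.45, -0.35 to 0.43, -0.21 to 0.30 and -0.16 to 0.13. The endothelial median (8 genes of 8) was 1.91 on that array and highest, 1.95, on replicate 1 of 24 h, against -0.22 to 0.39 in controls. Of these lists, 4 keratinocyte, 2 erythroid, 1 adipocyte, 1 endothelial and 0 macrophage genes were among the dimmest 25%.

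With the muscle median of each array as a covariate, the members' medians were 0.058, -0.045 and -0.27, with 21, 33 and 51 members below 0. In that fit 0, 0 and 1 members were lower at an unadjusted limma p under 0.05, and the share of all probe sets is not given. Only control 3, at 2.19, had a muscle median within the HIFU arrays' range of 2.02 to 5.51. Muscle signal and treatment can therefore hardly be told apart in this fit. The part of RNA from the other cell types in the members' differences was not tested.

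Array weights, which let limma count variable arrays less, gave calls where the unweighted fit gave none, with 3, 13 and 29 members called lower at an adjusted p under 0.05. That fit called 1118, 944 and 1846 of all probe sets, and its weights ran from 0.306 for replicate 2 of 72 h to 4.19 for control 2. Cyclic loess normalization moved the medians to -0.07, -0.19 and -0.57, with 35, 42 and 55 members below 0.

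Among small subunit genes the median difference was -0.53, -0.74 and -0.93 at the 3 times, and among large subunit genes -0.31, -0.41 and -0.73. At 72 h, 16 of 23 small and 17 of 36 large subunit genes were lower at an unadjusted limma p under 0.05, and 16 and 22 had all 3 arrays below the controls. Whether the subunits differ was not tested.

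Rps13, a small subunit protein at the interface with the large subunit, had the smallest p of all members in the F test over the 3 times. Its log2 signal was 14.26, 13.90 and 13.69 in controls, 12.80, 13.74 and 12.35 at 24 h, 12.92, 12.79 and 12.85 at 48 h, and 12.75, 12.23 and 12.53 at 72 h. The 48 h and 72 h arrays all lay below the controls, and 1 of the 24 h arrays lay among them. The difference from control was -0.99, -1.10 and -1.45 (SE 0.32), which at 72 h is 0.367 of the control level. The adjusted p by limma was 0.382, 0.228 and 0.255.

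Rps24, which has a role in processing the small subunit's RNA, read 18.60, 18.53 and 17.65 in controls, 17.34, 17.83 and 17.52 at 24 h, 17.02, 17.60 and 17.23 at 48 h, and 17.53, 16.85 and 17.04 at 72 h. All 48 h and 72 h arrays lay below control 3, the lowest of the controls. Differences were -0.70, -0.98 and -1.12 (SE 0.30, adjusted p by limma 0.494, 0.252 and 0.290). Rps20, which sits in the head of the small subunit, differed by -0.64, -0.90 and -1.07 (SE 0.29). Its 48 h and 72 h arrays, at 13.64 to 14.25, lay below all controls, at 14.48 to 15.40.

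Rps21 and Rps26 had the most negative differences of the small subunit at 48 h, -1.55 (SE 0.47) and -1.53 (SE 0.48). Rps26 lies at the exit channel of the message on the small subunit. The log2 signal of Rps26 was 16.01, 16.28 and 15.44 in controls, 14.71, 15.83 and 13.80 at 24 h, 14.72, 13.67 and 14.75 at 48 h, and 14.84, 14.38 and 15.09 at 72 h. That of Rps21 was 15.95, 16.01 and 15.48 in controls, 14.20, 15.81 and 14.09 at 24 h, 13.73, 14.46 and 14.60 at 48 h, and 15.23, 14.00 and 14.47 at 72 h. For both genes only replicate 2 of 24 h reached the controls' range. Differences at 24 h and 72 h were -1.13 and -1.14 for Rps26 and -1.11 and -1.25 for Rps21, and the smallest adjusted p of either by limma was 0.236.

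Rps28 did not follow the 24 h pattern of these genes. Its signal was 14.12, 14.38 and 13.90 in controls and 13.84, 14.58 and 13.70 at 24 h, so those groups overlapped. It was 12.91, 13.70 and 13.50 at 48 h and 13.60, 12.99 and 13.14 at 72 h, with every array below the controls. The difference was -0.09, -0.76 and -0.89 (SE 0.30).

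Rps14, Rps19 and Rps25 are known for disease or regulatory roles: loss of Rps14 or Rps19 function disturbs red cell production, and Rps25 helps internal ribosome entry on viral messages. Their differences at 72 h were -0.94 (SE 0.30), -0.96 (SE 0.37) and -1.04 (SE 0.36). At 24 h they were -0.53, -0.21 and -0.45. Rps19 overlapped its controls at both 24 h and 48 h. Rps4x, encoded on the X chromosome, read 15.64, 15.44 and 14.31 in controls and 15.64, 14.12 and 14.44 at 48 h, with differences of -0.83, -0.40 and -1.06 (SE 0.42).

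Rps6, whose protein is the phosphorylation target of S6 kinase downstream of mTOR, differed little, by -0.26, -0.29 and -0.30 (SE 0.22). Its signal was 18.80, 18.88 and 18.73 in controls and 18.59, 18.43 and 18.48 at 72 h. Rpsa, also known as the laminin receptor, differed by -0.35, -0.24 and -0.26 (SE 0.31), and its groups overlapped at all times. Rps23, part of the decoding centre, had values of 19.40 to 19.92 on all arrays and differences of -0.19, -0.25 and -0.05 (SE 0.20). It was within 0.21 of the highest signal of each array.

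**Figure D2:**
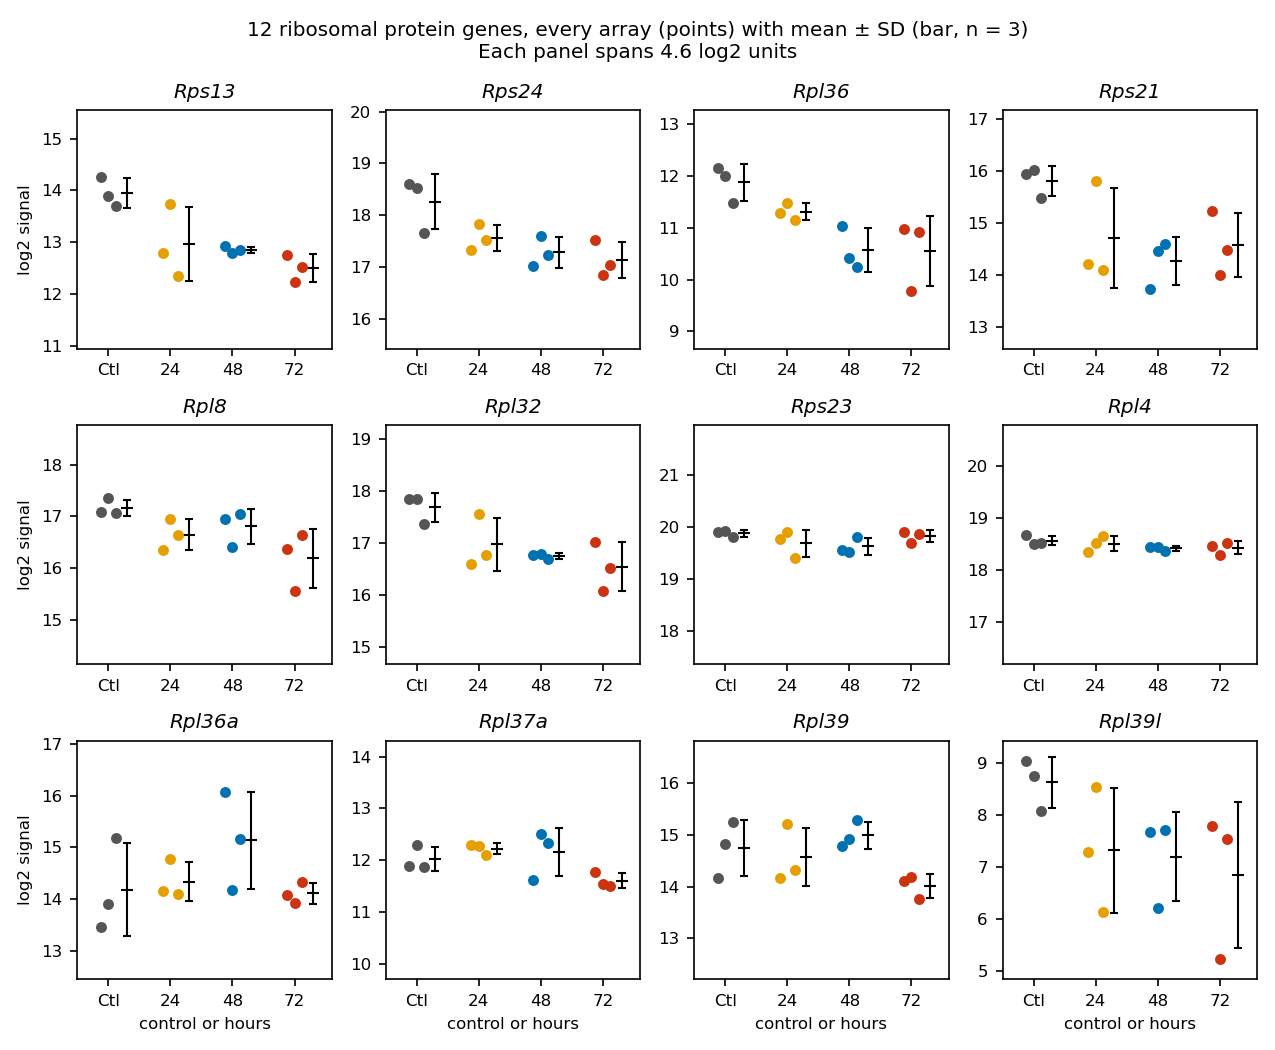
Log2 signal of 12 ribosomal protein genes on every array, with 1 panel per gene, points for arrays and bars for the mean and SD of the 3 arrays of a group, each panel spanning 4.6 log2 units. The 48 h and 72 h points of Rps13, at 12.23 to 12.92, lie below its controls, at 13.69 to 14.26, while those of Rpl4 span 0.38 over all 12 arrays.

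In the large subunit, Rpl36 had the most negative difference at 72 h after Rpl39l. Its signal was 12.15, 12 and 11.47 in controls, 11.29, 11.48 and 11.15 at 24 h, 11.04, 10.42 and 10.24 at 48 h, and 10.97, 9.78 and 10.91 at 72 h. Every 48 h and 72 h array lay below the lowest control. The differences were -0.57, -1.31 and -1.32 (SE 0.35), with an adjusted p by limma of 0.620, 0.222 and 0.279.

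Rpl3, which lies at the peptidyl transferase centre, read 17.15, 17.20 and 16.70 in controls, 16.36, 16.83 and 16.22 at 24 h, 16.46, 15.82 and 16.19 at 48 h, and 16.19, 15.47 and 16.53 at 72 h. The 48 h and 72 h arrays all lay below the controls. The difference was -0.55, -0.86 and -0.95 (SE 0.31). Rpl32 differed by -0.71, -0.94 and -1.14 (SE 0.31), and its 48 h and 72 h arrays, from 16.08 to 17.02, were below its controls at 17.36 to 17.85. The probe set named Rpl32l, an annotated copy of Rpl32 that was chosen after its values were seen, gave -0.48, -0.87 and -0.96 (SE 0.32), and the signals of the 2 genes cannot be told apart with certainty.

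Rpl38, known for its part in the translation of Hox messages in the embryo, differed by -0.70, -1.24 and -1.14 (SE 0.42). Rpl22, an RNA-binding protein that cells can do without, differed by -0.34, -0.77 and -0.81 (SE 0.33). Both had all 48 h arrays below the controls. At 72 h this held for Rpl38, while 1 array of Rpl22, at 18.29, lay above its lowest control, at 18.25. Rpl8, chosen after its values were seen, was the single member whose 9 HIFU arrays all lay below all 3 controls, against 1.65% of all probe sets. Its controls read 17.09, 17.35 and 17.06, and its HIFU arrays ran from 15.56 to 17.04. The gap to the lowest control was therefore as small as the distance between 17.04 and 17.06.

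Rplp0, the base of the acidic stalk that recruits elongation factors and a common reference gene in quantitative PCR, had an uneven 24 h group. Its signal was 15.13, 15.12 and 15.40 in controls, 14.09, 15.21 and 13.43 at 24 h, 14.52, 14.20 and 14.43 at 48 h, and 14.24, 13.86 and 14.45 at 72 h. All 48 h and 72 h arrays were below the controls. The differences were -0.97, -0.83 and -1.03 (SE 0.37, adjusted p by limma 0.441, 0.369 and 0.355). Its stalk partner Rplp1 read 18.45, 18.66 and 18.70 in controls, 18.08, 18.10 and 17.60 at 24 h, 19.00, 17.99 and 18.67 at 48 h, and 18.07, 17.85 and 18.39 at 72 h. Rplp1 was thus below the controls on all 24 h and 72 h arrays but not at 48 h, with differences of -0.68, -0.05 and -0.50 (SE 0.28).

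Rpl5 and Rpl11 bind Mdm2 when ribosome assembly is disturbed and so stabilise p53. Rpl5 read 18.90, 18.95 and 18.17 in controls, 17.45, 18.50 and 17.39 at 24 h, 18.67, 17.31 and 18.28 at 48 h, and 18.09, 16.92 and 17.95 at 72 h. It lay below every control at 72 h but not at 24 h or 48 h, and differed by -0.89, -0.59 and -1.02 (SE 0.45). Rpl11 had a tight control group, 17.65, 17.57 and 17.58, and read 17.04, 16.23 and 17.06 at 72 h, for differences of -0.29, -0.17 and -0.82 (SE 0.30). Of 14 p53 target genes, which include the member Rps27l, 0 were called by limma. Their median difference was -0.08, 0.06 and 0.21, and 7, 7 and 5 of them were below 0. Among them Cdkn1a, which encodes the cell cycle inhibitor p21, differed by 2.70, 1.01 and 2.04 (SE 0.61, adjusted p by limma 0.212, 0.495 and 0.309).

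Some members hardly differed or went the other way. Rpl4, a large subunit protein that lines the exit tunnel, varied over all 12 arrays with an SD of 0.114 and a range of 0.38, and differed by -0.06, -0.15 and -0.14 (SE 0.18). Rpl36a read 13.46, 13.91 and 15.19 in controls and 16.06, 14.18 and 15.16 at 48 h, with differences of 0.15, 0.95 and -0.07 (SE 0.50). Control 3 and replicate 1 of 48 h were its highest arrays, and no group stood apart from the controls.

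Rpl37a read 11.90, 12.29 and 11.88 in controls, 12.29, 12.28 and 12.10 at 24 h, 11.63, 12.51 and 12.33 at 48 h, and 11.77, 11.55 and 11.51 at 72 h. Its difference was 0.20, 0.13 and -0.41 (SE 0.25). Rpl39, a short protein of the exit tunnel, read 14.17, 14.82 and 15.24 in controls, 14.17, 15.21 and 14.32 at 24 h, 14.78, 14.91 and 15.28 at 48 h, and 14.10, 14.19 and 13.75 at 72 h, with differences of -0.18, 0.25 and -0.73 (SE 0.34). For both genes the lowest group was 72 h. Rpl7 likewise had its lowest group at 72 h, with differences of -0.20, 0.24 and -0.64 (SE 0.29).

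**Figure D3:**
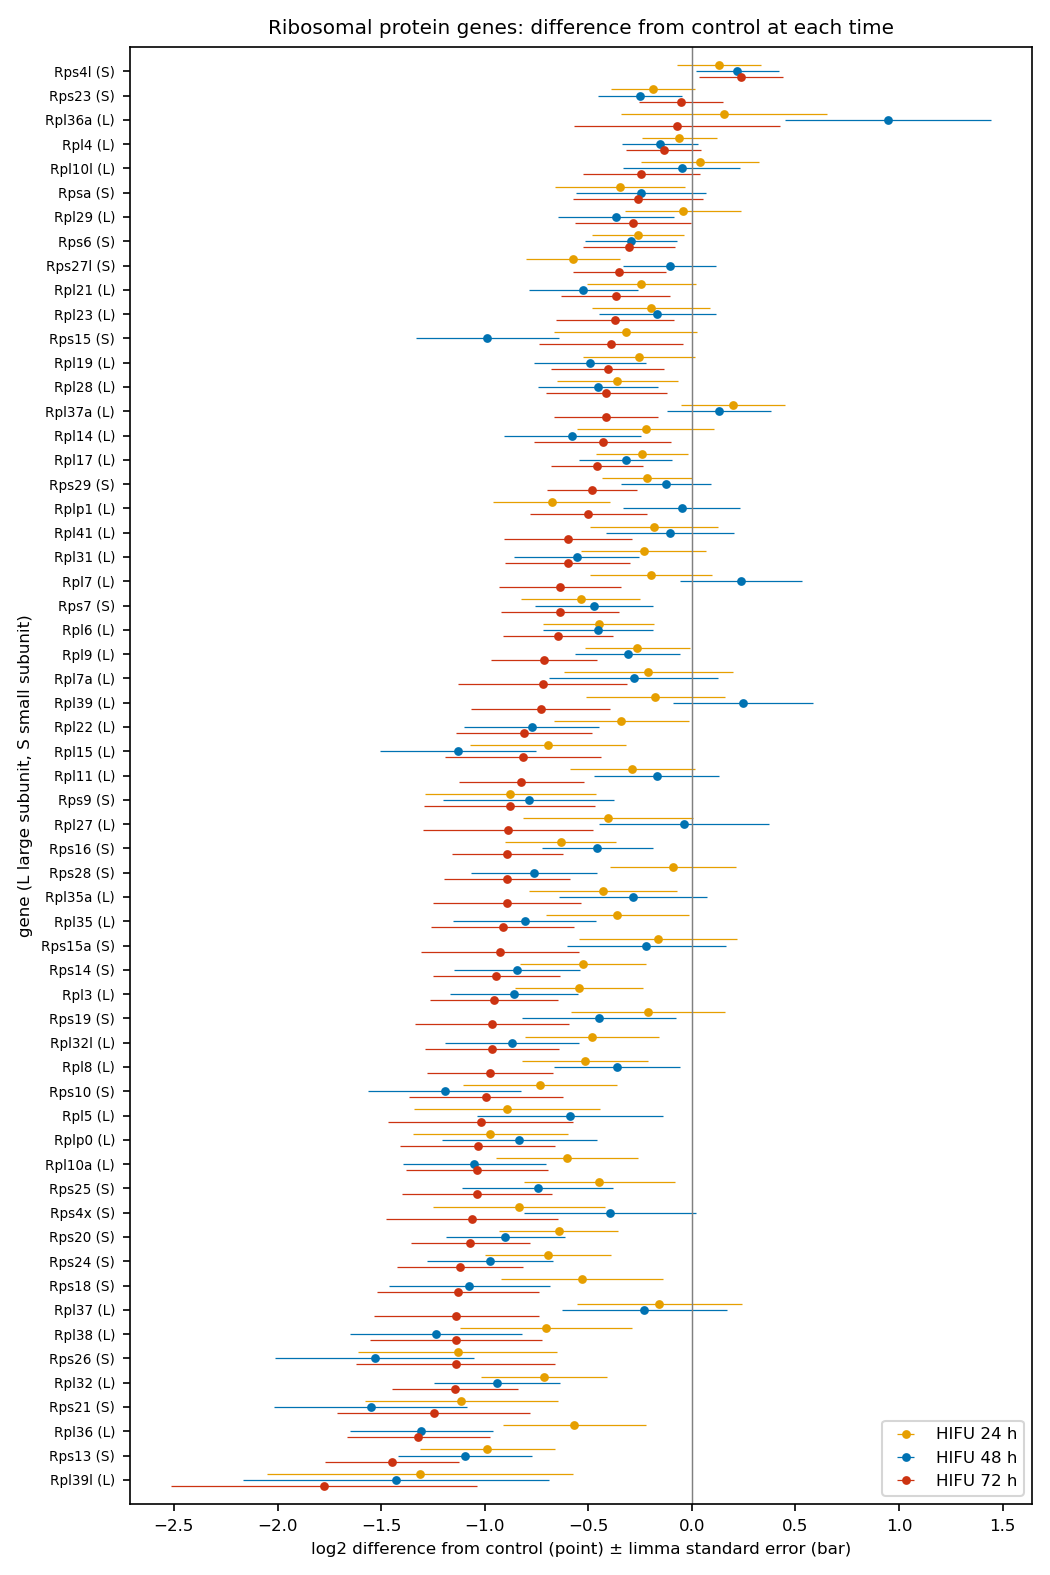
Log2 difference from the 3 controls at 24 h, 48 h and 72 h for each of 59 ribosomal protein genes, with a bar for the limma standard error and L or S for the large or small subunit. Of the 59 genes 55, 54 and 58 lie left of 0, most between 0 and -1.5, and Rpl36a at 48 h lies farthest right at 0.95.

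The name pattern also takes in paralogs with their own patterns of expression. Rpl39l, a copy of Rpl39 known from testis and some tumors, varied most of all members, with an SD of 1.14 and a range of 3.81 over the 12 arrays. Its signal was 9.04, 8.76 and 8.08 in controls, 7.28, 8.54 and 6.13 at 24 h, 7.67, 6.21 and 7.71 at 48 h, and 7.78, 5.23 and 7.54 at 72 h. All 48 h and 72 h arrays were below the controls. The difference was the most negative of any member at each of 24 h and 72 h, -1.31 and -1.78, and -1.43 at 48 h (SE 0.74), but the SE was also the highest and the adjusted p by limma was 0.590, 0.425 and 0.401.

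Rps27l, a paralog of Rps27 that p53 induces, read 9.03, 9.06 and 9.17 in controls, 8.66, 8.75 and 8.13 at 24 h, 8.98, 9.11 and 8.85 at 48 h, and 9.02, 8.64 and 8.55 at 72 h. It was below the controls on all 24 h arrays, by -0.57 (SE 0.23), and by -0.11 and -0.35 at the later times. Rpl10l, a testis copy of Rpl10, differed by 0.04, -0.05 and -0.24 (SE 0.28). Rps4l differed by 0.13, 0.22 and 0.24 (SE 0.20) and was the member with all 72 h arrays above the controls, 4.27, 4.56 and 4.26 against 4.21, 4.13 and 4.04. Rpl10l and Rps4l had mean signals below the median signal of every array.

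Rpl3l takes the place of Rpl3 in ribosomes of heart and skeletal muscle. Its signal was 4.09, 5.02 and 5.75 in controls, 7.85, 5.30 and 5.04 at 24 h, 5.87, 6.01 and 6.11 at 48 h, and 5.29, 8.33 and 6.02 at 72 h. The 48 h arrays lay above all controls, and the other HIFU groups overlapped them. Replicate 1 of 24 h and replicate 2 of 72 h were the highest, and these were also the arrays with the highest muscle medians, 5.37 and 5.51. Differences from control were 1.11, 1.04 and 1.59 (SE 0.83), with adjusted p by limma of 0.687, 0.608 and 0.503. Without replicate 1 of 24 h the difference at 24 h was 0.22, and without replicate 2 of 72 h that at 72 h was 0.70.

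The log2 signal of Rpl3l minus that of Rpl3 on the same array was -13.06, -12.18 and -10.95 in controls. It was -8.51, -11.53 and -11.18 at 24 h, -10.59, -9.81 and -10.08 at 48 h, and -10.90, -7.14 and -10.51 at 72 h. The HIFU mean was -10.03 ± 1.40 (SD, n = 9) and the control mean -12.06 ± 1.06 (SD, n = 3). The difference of 2.04 had p = 0.05 in a two-sided exact permutation test over 220 arrangements, which does not pass a threshold of p under 0.05. It was between 1.54 and 2.59 when an array was left out. Leaving out control 3 gave 2.59 (exact permutation p = 0.0364), replicate 2 of 24 h 2.22 (p = 0.0364), replicate 3 of 24 h 2.18 (p = 0.0485) and replicate 2 of 72 h 1.68 (p = 0.0303). Leaving out control 1 gave 1.54 (exact permutation p = 0.182), control 2 1.98 (p = 0.109) and replicate 1 of 24 h 1.85 (p = 0.0727). The other 5 omissions gave exact permutation p-values of 0.0545 to 0.0606, so the call depends on single arrays. By time the difference was 1.66, 1.90 and 2.55, with no test, since 20 arrangements of 3 against 3 cannot reach the threshold. Both probe sets enter this value. The Rpl3l signals of controls 1 and 2, of replicates 2 and 3 of 24 h and of replicate 1 of 72 h lay below the median signal of every array.

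**Figure D4:**
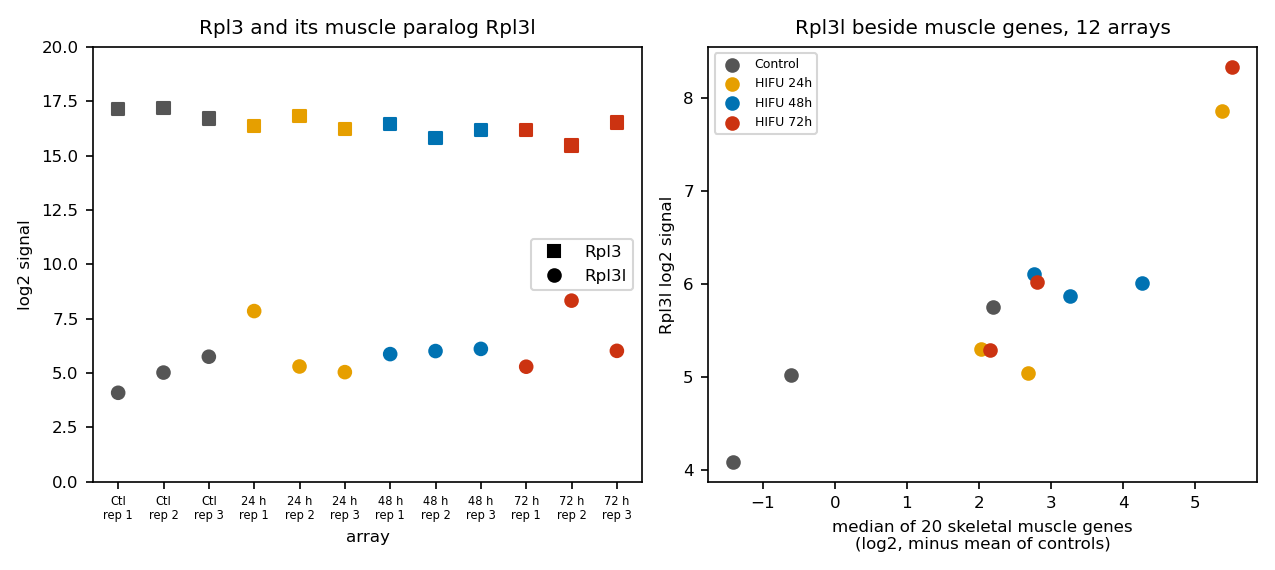
Left, log2 signal of Rpl3 (squares) and Rpl3l (circles) on each of the 12 arrays; right, the log2 signal of Rpl3l against the median of 20 skeletal muscle genes as a difference from the control mean, with 1 point per array. Rpl3 stays between 15.47 and 17.20, and the arrays with Rpl3l at 7.85 and 8.33 have the highest muscle medians.

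The members differed among themselves on each array. The SD of their deviations was 0.16 to 0.32 on control arrays and 0.27 to 0.69 on HIFU arrays. Replicate 1 of 48 h had the widest spread, from -2.08 for Rps21 to 1.87 for Rpl36a. Rpl39l was the lowest member on replicate 3 of 24 h, replicate 2 of 48 h and replicate 2 of 72 h, at -2.50, -2.42 and -3.40.

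Across the 3 times, 7 members had an unadjusted limma p under 0.05 and a lower signal at each: Rpl32, Rplp0, Rps13, Rps20, Rps21, Rps24 and Rps26. Of these, 5 are small subunit genes and 2 are large subunit genes. There were 7 such members shared by 24 h and 48 h, 8 by 24 h and 72 h and 18 by 48 h and 72 h, and these comparisons share their controls. The share of all probe sets under these joint rules is not given here. In the F test over the 3 times, limma called 0 members (0.00901% of all probe sets), and 16 had an unadjusted p under 0.05 (9.34% of all probe sets). With the 9 HIFU arrays together the median difference was -0.53, against -0.006 over all probe sets. In that comparison 57 members were below 0, and limma called 0 (0% of all probe sets lower, 0.018% higher). There 28 members were lower at an unadjusted limma p under 0.05 (8.59% of all probe sets), and the smallest adjusted p by limma was 0.127, for Rps13.

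Between times the differences were smaller. The median was -0.09 from 24 h to 48 h, -0.16 from 48 h to 72 h and -0.37 from 24 h to 72 h, with 39, 44 and 54 members below 0. Over all probe sets these medians were 0, -0.03 and -0.04. In all 3 pairs limma called 0 members and 0% of all probe sets. At an unadjusted p under 0.05, 1 member was lower and 1 higher between 24 h and 48 h (2.04% and 1.85% of all probe sets), 3 were lower and 0 higher between 48 h and 72 h (2.93% and 3.33%), and 3 were lower and 0 higher between 24 h and 72 h (2.35% and 3.22%). Rps28 had -0.80 between 24 h and 72 h (SE 0.30, adjusted p by limma 0.843), and Rpl7 had -0.87 between 48 h and 72 h (SE 0.29, adjusted p by limma 0.746). Rplp1 was the member that was higher, by 0.63 between 24 h and 48 h (SE 0.28, adjusted p by limma 0.999).

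The size of the differences varied with brightness. The 14 members with a mean signal of at least 18 had medians of -0.24, -0.41 and -0.44, and 2 of them were lower at an unadjusted limma p under 0.05 at 72 h. The 25 members between 12 and 16 had medians of -0.48, -0.74 and -0.94, and 18 of them were lower by that rule. For the 13 members between 16 and 18 the medians were -0.45, -0.47 and -0.82, with 10 lower, and for the 7 under 12 they were -0.41, -0.11 and -0.89, with 3 lower.

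The 12 members with a TOP tract at any of their annotated starts had median differences of -0.46, -0.84 and -0.92, with values from -1.25 to -0.30 at 72 h. The 34 members whose starts show none had -0.33, -0.45 and -0.77, and the 13 without a promoter entry -0.52, -0.37 and -0.64. Rps21 and Rps6, both with a tract in the starts printed above, had the extreme values of the 12 at 72 h. Rps10, Rps18 and Rpl15, also printed there, differed by -0.99 (SE 0.37), -1.13 (SE 0.39) and -0.82 (SE 0.38) at 72 h, and Rpl14 by -0.43 (SE 0.33). Rps10, Rps18, Rpl15 and Rpl14 were chosen after their values were seen.

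Lists of other genes of ribosome production and translation had negative medians as well, with none of their genes called by limma. Their shares of lower genes are to be read against the 5.86%, 8.01% and 5.39% of all probe sets and the 9.1%, 14.2% and 10.4% of the brightest 10% given above. The 16 other TOP messages had medians of -0.39, -0.36 and -0.50, with 2, 3 and 4 lower at an unadjusted limma p under 0.05 (12.5%, 18.8% and 25%). The 28 initiation and elongation factors had -0.39, -0.37 and -0.31, with 6, 6 and 7 lower (21.4%, 21.4% and 25%). These lists overlap, and Eef1d and Eif3e are among the genes in both. Eef1d, which recharges elongation factor 1 alpha with GTP, differed by -0.96, -0.89 and -0.87 (SE 0.26), and Eif3e, a subunit of initiation factor 3, by -0.89, -0.85 and -1.36 (SE 0.41). Eef1a2, the form of elongation factor 1 alpha made in muscle and neurons, was in neither list but in one of ribosome partners. It differed the other way, by 1.91, 2.12 and 1.79 (SE 0.57).

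The 35 ribosome biogenesis genes had medians of -0.24, -0.23 and -0.44, with 2, 5 and 6 lower by the same rule (5.71%, 14.3% and 17.1%). At 24 h and 48 h these shares and medians were near those of all or of bright probe sets. Nip7, which takes part in the maturation of ribosomal RNA, differed by -1.04, -1.35 and -1.34 (SE 0.30, adjusted p by limma 0.317, 0.202 and 0.255). The 76 mitochondrial ribosomal protein genes had -0.15, -0.24 and -0.22, with 4, 9 and 7 lower (5.26%, 11.8% and 9.21%), shares and medians near the background of bright probe sets or below it. The 10 genes of the Myc network had -0.18, -0.25 and -0.16, with 7, 6 and 6 of them below 0. Myc itself differed by -1.05, -1.91 and -1.19 (SE 0.55, adjusted p of the limma F test 0.515). Max differed by -0.67, -0.81 and 0.46 (0.311 in that test), and Mxd1 by 0.40, 1.00 and 2.49 (0.479). The 19 genes of translation control had -0.03, -0.20 and -0.11, and among them Ddit4, an inhibitor of mTOR, differed by -1.95, -1.78 and -2.58 (SE 0.45, adjusted p by limma 0.212, 0.205 and 0.146). At 24 h the member median was -0.36, while those of the other TOP messages and of the initiation and elongation factors were both -0.39. At 72 h the member median of -0.82 was lower than each of these list medians. These differences between lists were not tested.

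**Figure D5:**
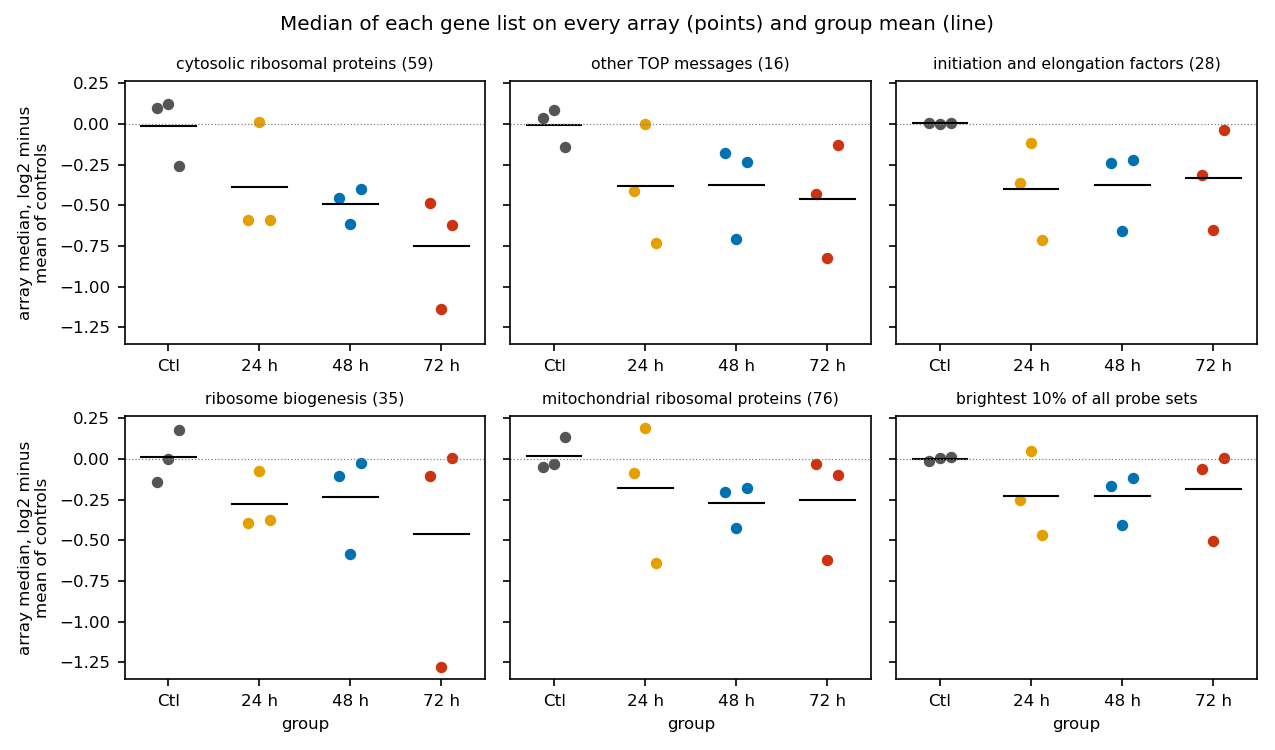
Median log2 deviation from the control mean of the ribosomal protein genes and of the lists set beside them, with 1 point per array and a line at each group's mean. The ribosomal protein medians reach -1.14 at 72 h, and the medians of the brightest 10% of probe sets on the same arrays reach -0.51.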

How the data were processed

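RNA from 12 samples of frozen tumor tissue was measured on 1 array each, and groups were taken from the sample titles. The values are the authors' deposited log2 signals per probe set. The submitters' processing notes list Transcriptome Analysis Console 4.0, without its role. That they are log2 was judged from their range. For summarization, background correction and genome build, the method was not given in the sources used here. Such normalization makes each difference relative to the other genes of the array, and the 3 arrays per group limit the precision. Of 22206 probe sets, 19572 had 1 gene symbol in the platform annotation, 0 had several and 2634 had none.

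In R 4.3.3, limma 3.58.1 (lmFit and eBayes) fitted 1 mean for each group to all 12 arrays, with 8 residual and 3.37 prior degrees of freedom. Tests were two-sided. The Benjamini-Hochberg adjustment ran over 22206 probe sets, and a call needs an adjusted p under 0.05. SE is the limma standard error. The scripts were tested on simulated data. Group medians of a list carry no p. Python 3.11.15 and matplotlib 3.10.9 were used for sequences and figures.

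The members and lists were chosen with earlier results of these data known. Members named in the text are, at each time, the 4 most negative and 4 most positive, then the 6 with the smallest F test p, and a fixed set of well-known genes. From each list beside them, up to 3 genes by F test p could be named; other names are said to be chosen after their values were seen. Alternatives were other scalings, array weights, a variance trend, a filter on low signals, the groups compared alone, the replicate number as a block, a muscle covariate and each array left out.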

Additional observations from a re-analysis of the deposited data

Results flagged for a closer look

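For 2 members, every array of one time lay on one side of the control mean and every array of another time on the other side. Rpl37a differed from control by 0.20 at 24 h, where all 3 arrays were above the control mean, and by -0.41 at 72 h, where all 3 were below it. The adjusted p by limma for its 72 h against 24 h difference of -0.61 (SE 0.25) was 0.852. Rpl39 differed from control by 0.25 at 48 h and by -0.73 at 72 h. The adjusted p by limma for its 72 h against 48 h difference of -0.98 (SE 0.34) was 0.746. Neither difference between times passed the threshold.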

How the results depend on the processing

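Array weights gave 3, 13 and 29 members called at 24 h, 48 h and 72 h, 15 in the F test and 34 over all HIFU arrays, against 0 in each without weights. The weighted fit called 1118, 944 and 1846 of all 22206 probe sets at the 3 times. Shares of all probe sets called in the F test and over all HIFU arrays are not given for the alternatives. With the muscle median as a covariate the members' medians were 0.058, -0.045 and -0.27, and the difference of Rpl3l was -1.07, -1.18 and -0.67 (adjusted p by limma 0.964, 0.991 and 1). Cyclic loess gave a median of -0.19 at 48 h. Median centring moved the median of all probe sets at 72 h to -0.20. Leaving out each array gave medians of -0.62 to -0.24 at 24 h, -0.65 to -0.39 at 48 h and -0.97 to -0.57 at 72 h, and 0 to 1 members called over all HIFU arrays (1 without control 3 or without replicate 2 of 24 h). It gave Rpl3l minus Rpl3 of 1.54 to 2.59. The counts of lower members at an unadjusted limma p under 0.05, 10, 20 and 33 at the 3 times, ranged from 0 to 21, 11 to 22 and 13 to 38 when an array was left out. They were 32, 31 and 42 with array weights and 0, 0 and 1 with the muscle covariate, and at 24 h 6 with quantile normalization and 3 with cyclic loess. Shares of all probe sets at this unadjusted threshold are not given for any alternative, so such counts have no background beside them. In the fit with the muscle covariate, muscle signal and treatment can hardly be told apart. Leaving out control 3 and replicate 2 of 72 h together was chosen after seeing the data. It gave 3 members called at 48 h, a 48 h median of -0.65 and 4 members called over all HIFU arrays. At an unadjusted limma p under 0.05 it gave 20, 26 and 20 lower members. Its Rpl3l minus Rpl3 difference was 2.23 (exact permutation p = 0.0222). The same omission called 468, 645 and 164 of all 22206 probe sets at 24 h, 48 h and 72 h, where the main fit called 12, 1 and 2. With the replicate number as a block, 0 members were called at each time, the medians stayed -0.36, -0.46 and -0.82, and 7, 17 and 29 members were lower at an unadjusted limma p under 0.05. Correlations between samples of different groups were also taken, and they are not correlations of the raw signals. The 18 pairs of same-numbered samples had correlations from -0.61 to 0.63, with 4 over 0.1. The 36 other pairs of samples from different groups had correlations from -0.58 to 0.60, with 18 over 0.1. Whether same-numbered samples share more than a number cannot be told from these values. The other alternatives left these calls and directions as they were. For the named members, 28 values passed the threshold under an alternative and 76 moved. A change of sign could count as moved, as for Rpl3l with the muscle covariate. With that covariate 21 of the 59 members were below 0 at 24 h, against 55 in the main fit.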
